A study of Mus musculus with 17 samples.

Results

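The melanocyte pigment genes of the cochlea were described in 17 libraries of cochlear RNA. Members were chosen by gene symbol, as Tyr, Tyrp1, Dct, Pmel, Mlana, Mitf, Slc45a2 and Oca2, and each matched 1 row, so that 8 of the 35285 genes in the table were read. All animals were male wild-type C57BL/6J mice, 8 weeks old, a black-coated strain that also carries a Cdh23 variant known for early hearing loss. The control group (n = 3) received saline injections and no noise. The NE group (noise exposure, n = 7) spent 2 h in 100 dB noise of 8 to 16 kHz. The brimonidine group (n = 7) had the same exposure and brimonidine, which activates α2-adrenergic receptors, given intraperitoneally at 1 mg/kg on 3 successive days around the noise. Cochleae were taken 2 days after the noise, and by the study's methods the 17 libraries came from 17 mice. The labels call the noise broadband and the methods octave-band.

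Pigment cells of the cochlea are the intermediate cells of the stria vascularis, melanocytes of neural crest origin that lie between the marginal and basal cells. Their potassium channels help to generate the endocochlear potential on which hair cell transduction depends. Melanin is made in melanosomes from tyrosine by tyrosinase and 2 related enzymes, on a fibrous scaffold, under the transcription factor MITF, and mice that lack these melanocytes are deaf. In RNA from a whole tissue, fewer melanocytes and less RNA per melanocyte cannot be told apart.

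The 8 genes form 4 roles. Tyr (tyrosinase, ENSMUSG00000004651, chr7:87424771-87493512, minus strand) encodes the enzyme of the first and rate-limiting step. Dct (dopachrome tautomerase, ENSMUSG00000022129, chr14:118012792-118052246, minus strand) and Tyrp1 (ENSMUSG00000005994, chr4:80834123-80851719, plus strand) encode the related enzymes of later steps. Pmel (ENSMUSG00000025359, chr10:128704195-128720238, plus strand) encodes the protein that builds the fibrils of the melanosome, and Mlana (ENSMUSG00000024806, chr19:29697921-29708448, plus strand) encodes a melanosomal protein needed for Pmel processing. Slc45a2 (ENSMUSG00000022243, chr15:11000721-11029233, plus strand) and Oca2 (ENSMUSG00000030450, chr7:56239760-56536518, plus strand) encode membrane transporters that set the melanosome's internal pH, and both cause albinism when lost. Mitf (ENSMUSG00000035158, chr6:97807052-98021349, plus strand) encodes the regulator of the lineage, and osteoclasts, mast cells and macrophages also use it. Positions are those of the deposited table on mm10. The strand used in counting was not given in the sources used here, and Pmel shares 34 exonic bases (1.48% of its length) with Cdk2 and 105 (4.58%) with Dgka on the opposite strand, so its low values may hold reads of these neighbours. The other members shared no exonic base with another gene.

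The promoters of the 3 enzymes are shown because the enzymes share a short sequence there. RefSeq windows on GRCm38.p6 were found for 5 of the 8 members, with 3 alternative starts for Mitf. Pmel, Mlana and Slc45a2 were not matched. The 250 bases before the start of each enzyme gene read as follows, 5′ to 3′ on the gene's own strand, with the longest run that the 3 windows have in common in capitals.
Tyr, chr7:87493513-87493762, minus strand: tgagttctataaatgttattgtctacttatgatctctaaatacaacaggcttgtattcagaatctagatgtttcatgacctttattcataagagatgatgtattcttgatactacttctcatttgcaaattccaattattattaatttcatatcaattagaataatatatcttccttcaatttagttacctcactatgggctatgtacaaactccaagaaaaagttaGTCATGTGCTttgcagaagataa
Tyrp1, chr4:80833963-80834212, plus strand: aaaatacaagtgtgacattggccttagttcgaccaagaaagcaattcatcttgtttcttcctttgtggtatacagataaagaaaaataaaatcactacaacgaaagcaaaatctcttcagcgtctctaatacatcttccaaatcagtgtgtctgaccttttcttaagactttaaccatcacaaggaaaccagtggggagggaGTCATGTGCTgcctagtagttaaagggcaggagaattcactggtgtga
Dct, chr14:118052247-118052496, minus strand: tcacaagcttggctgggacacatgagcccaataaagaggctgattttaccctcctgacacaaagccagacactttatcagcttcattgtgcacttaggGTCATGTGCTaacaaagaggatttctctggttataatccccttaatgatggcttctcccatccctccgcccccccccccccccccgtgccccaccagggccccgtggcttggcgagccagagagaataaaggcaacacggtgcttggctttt
The run begins 23 bases before the start of Tyr, 48 before that of Tyrp1 and 152 before that of Dct, as RefSeq places the starts. For Tyrp1 this start lies downstream of the first base of the gene in the deposited table, so that the run falls inside the gene by the table's coordinates. It contains CATGTG, the form of E-box in the M-box that MITF is known to bind. Searched on both strands in the same 250 bases of all 32851 windows in the table, the 10-base run was present in 0.155%, TCATGTG, which lies within it, in 3.25% and CATGTG, which lies within both, in 12.3%. Oca2 had CATGTG on the opposite strand, beginning 186 bases before its start, and the 3 Mitf windows had none. CACGTG, the other common E-box, was in 6.02% of all windows and in none of the 7 windows of the members. These matches describe letters in a window and not binding, which was not measured.

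Libraries held between 14457733 and 18288854 fragments counted on genes. FPKM values, which divide a gene's fragments by its length and by the library's total, could be turned back into whole fragments for all 35029 genes above 0, with a tolerance of 0.02 fragments. For 2606 of these genes the length was itself solved from the values. Control 2 stood apart from the other libraries. It had the highest level of all 8 members among the controls. Its ratio to the mean of controls 1 and 3 ran from 1.70 for Pmel to 5.82 for Mlana. The summed FPKM of central neuron, marginal cell, basal cell and fibrocyte, Schwann cell, bone, red cell and hair cell genes was also highest there. That of skeletal muscle, keratinocyte, osteoclast, mast cell and macrophage genes was not. The members' differences from control are therefore given with and without control 2. The labels name interstitial cells, but markers of hair cells, marginal cells, bone, muscle and red cells were all present, so that the libraries hold mixed cochlear tissue.

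Dct was by far the most abundant pigment transcript. It was first in all 17 libraries, with a median of 32.4 FPKM, and it held between 72.6% and 81.3% of the summed FPKM of the 8 genes. Mlana (median 3.08 FPKM) and Mitf (2.77 FPKM) followed, and Mlana was the higher of the pair in 11 of 17 libraries, so that their order was not settled. Mitf exceeded Slc45a2 (2.19 FPKM) in 15 libraries, Slc45a2 exceeded Pmel (1.346 FPKM) in 16, and Pmel exceeded Tyr (1.07 FPKM) in 15. Tyrp1 (0.226 FPKM) was below Tyr in all 17, and Oca2 (median 0) was last in all 17. Within the enzyme family, Dct exceeded Tyr by 23.7 to 45.3 times.

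**Figure D1:**
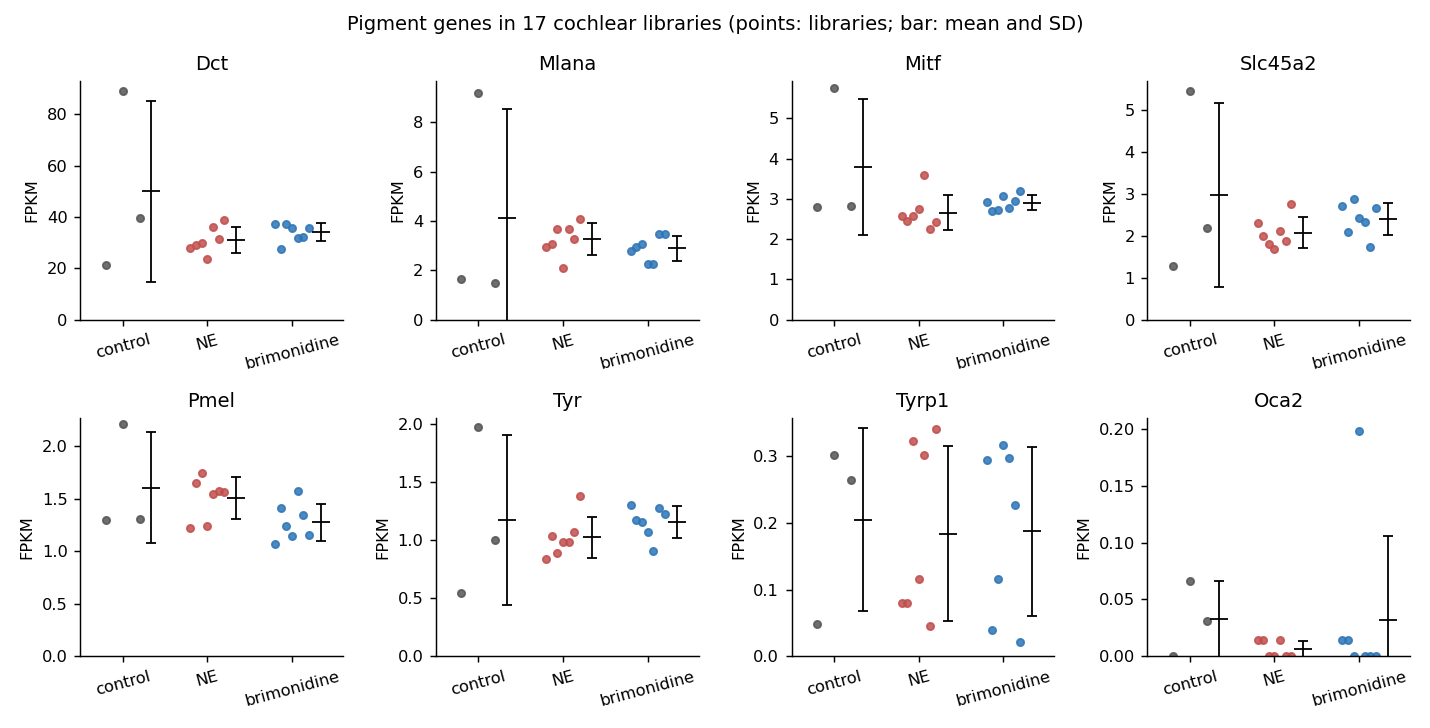
FPKM of the 8 pigment genes in each library (vertical axes from 0, a separate scale for each gene), by group. Points are libraries and bars give the mean and SD, cut off at 0 for Mlana and Oca2. In the controls 1 point, control 2, lies above the others for every gene, and the NE and brimonidine points overlap.

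The first comparison asked whether noise exposure changed the pigment genes 2 days later. In the NE group no member was differentially expressed, and all 8 members overlapped between the groups. Of the 8, 6 reached 1 FPKM in at least 3 of the libraries compared and were tested (Tyrp1 and Oca2 did not). None passed limma's test (Benjamini-Hochberg adjusted p under 0.05 over all 15950 genes tested with a log2 fold change of 1 or more in size), where 5.76% of all genes did. None had an unadjusted p under 0.05, with limma on log2(FPKM + 1) or with voom on the recovered fragments. None had groups that did not overlap, where 18.3% of all genes tested did. Differences below are in log2(FPKM + 1), NE minus control.

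Of the enzymes, Dct had 21.2 FPKM in control 1, 89.3 in control 2 and 39.6 in control 3, and 23.5 to 38.7 FPKM in the NE group (median 30.0). Controls 1 and 3 thus bracketed all 7 exposed libraries, and only control 2 lay far above them. Controls averaged 50.04 ± 35.2 FPKM (SD, n = 3) and exposed libraries 31.0 ± 5.10 (SD, n = 7), a difference of -0.45 that did not pass the test (95% interval -1.18 to 0.28, adjusted p = 0.356, limma). Without control 2 the difference was 0.08, and without control 1 it was -0.93 with an adjusted p of 0.0329 (limma), so that the value rested on which control was read. Tyr had 0.545, 1.97 and 0.997 FPKM in controls 1, 2 and 3, and 0.834 to 1.38 in the NE group (median 0.985). Its libraries again lay between controls 1 and 2, with a difference of -0.05 (95% interval -0.45 to 0.34) that turned to 0.20 without control 2. Tyrp1 had 0.0489, 0.303 and 0.264 FPKM in controls 1, 2 and 3, from 2, 13 and 12 fragments. In the NE group it had 0.0448 to 0.341 FPKM (median 0.116). The NE libraries reached beyond the controls on both sides (exact two-sided permutation p = 0.958). With 2 to 17 fragments in each, a difference was not detectable at this depth.

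Of the melanosome proteins, Mlana had 1.67, 9.20 and 1.497 FPKM in controls 1, 2 and 3, and 2.11 to 4.10 FPKM in the NE group (median 3.26). All 7 NE libraries lay above controls 1 and 3 and below control 2. With all controls the difference was 0.05 (95% interval -0.77 to 0.86). Without control 2 it was 0.71, with an adjusted p of 0.0258 (limma), and with array weights, which reduce the part of libraries far from their group, it was 0.71 with an adjusted p of 0.00578. It stayed below the fold threshold in both. Without control 1 it was -0.26 and without control 3 it was -0.31, so that its direction rested on which control was left out. Mlana rests on 15 fragments in control 1, 15 in control 3 and 24 to 45 in the NE libraries. Pmel had 1.30, 2.21 and 1.30 FPKM in controls 1, 2 and 3, and 1.22 to 1.75 in the NE group (median 1.56), a difference of -0.04 (95% interval -0.33 to 0.24) that turned to 0.12 without control 2. Of all members Pmel varied least between the controls, with a coefficient of variation of 32.9%.

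Of the transporters, Slc45a2 had 1.28, 5.45 and 2.19 FPKM in controls 1, 2 and 3, and 1.69 to 2.76 in the NE group (median 1.99). All NE libraries lay between controls 1 and 2, and the difference of -0.24 (95% interval -0.80 to 0.32) turned to 0.18 without control 2. Oca2 was at the limit of detection, with 0, 4 and 2 fragments in controls 1, 2 and 3 and 0 or 1 in each NE library. A count of 0 allows up to 3 fragments, 0.0414 to 0.0524 FPKM depending on the library. Mitf had 2.79, 5.74 and 2.82 FPKM in controls 1, 2 and 3, and 2.24 to 3.59 in the NE group (median 2.58). Of the 7 NE libraries 6 lay below every control, and NE 5 alone lay above controls 1 and 3. Its difference of -0.34 (95% interval -0.73 to 0.05, adjusted p = 0.205, exact permutation p = 0.075) became -0.07 without control 2.

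The second comparison asked whether brimonidine changed the pigment genes of exposed mice. The NE and brimonidine groups overlapped for all 8 members, and no member was differentially expressed. None of the 6 members tested passed, as 0% of the 15707 genes tested did, and groups that did not overlap were found for 0.14% of all genes and for no member. None had an unadjusted p under 0.05 by limma or voom. Adjusted p lay between 0.870 and 0.917 (limma).

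Differences, brimonidine minus NE, were all small, and their intervals were the narrowest of the 3 comparisons. Tyr had 0.902 to 1.30 FPKM in the brimonidine group (median 1.17), a difference of 0.09 (95% interval -0.06 to 0.25). Dct had 27.7 to 37.3 FPKM (median 35.6), a difference of 0.14 (95% interval -0.07 to 0.34). Slc45a2 had 1.74 to 2.87 FPKM (median 2.42), with 0.14 as well (95% interval -0.05 to 0.33). Each of these 3 differences was within the spread of libraries. Mitf had 2.70 to 3.19 FPKM (median 2.93), a difference of 0.10 (95% interval -0.04 to 0.25), and its coefficient of variation in the brimonidine group was 6.49%, the lowest of any member there. The intervals of the melanosome protein genes included 0 as well. Mlana had 2.25 to 3.48 FPKM (median 2.95), a difference of -0.13 (95% interval -0.35 to 0.10). Pmel had 1.07 to 1.57 FPKM (median 1.25), a difference of -0.14 (95% interval -0.29 to 0.01). The exact permutation p of Pmel was 0.0484 before and 0.525 after Benjamini-Hochberg adjustment over the 24 exact tests of members. With limma its p was 0.0716 before and 0.870 after adjustment. Of the 7 brimonidine libraries 3 lay below every NE library. Tyrp1 had 0.0213 to 0.317 FPKM from 1 to 16 fragments. Oca2 had 14 fragments in brimonidine 4 and 0 or 1 in the other 6.

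**Figure D2:**
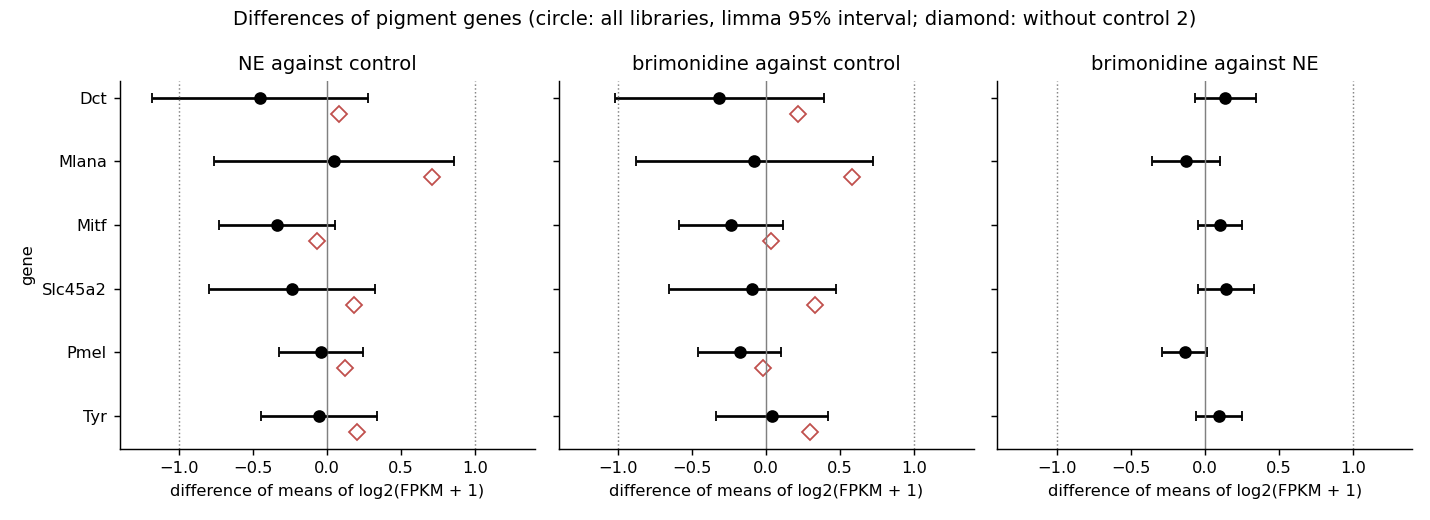
Differences of mean log2(FPKM + 1) for the 6 members tested, in 3 comparisons. Circles with bars give all libraries with limma's 95% interval, diamonds leave out control 2, and dotted lines mark the fold threshold. Every interval includes 0, those between brimonidine and NE are narrowest, and leaving out control 2 moves all values in the other 2 panels to the right, Mlana the farthest.

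The third comparison set the brimonidine group beside unexposed controls, which the first comparison also used. None of the 6 members tested passed the thresholds, against 5.73% of the 15947 genes tested, and none had groups that did not overlap, against 19.4%. None had an unadjusted p under 0.05 by limma or voom. Dct had 34.0 ± 3.52 FPKM (SD, n = 7) and a difference of -0.32, Mitf one of -0.24, Pmel one of -0.18, Slc45a2 one of -0.09, Mlana one of -0.08 and Tyr one of 0.04, with adjusted p between 0.299 and 0.894 (limma). The intervals were wide, as with NE, reaching from -1.02 to 0.39 for Dct. Without control 2, Mlana was again above both remaining controls in all 7 libraries (difference 0.58, adjusted p = 0.0250, limma), but its difference was -0.39 without control 1 and -0.43 without control 3. Without control 2 the other differences were 0.21 for Dct, 0.04 for Mitf, -0.02 for Pmel, 0.33 for Slc45a2 and 0.29 for Tyr. Without control 1 the difference of Dct was -0.80 (adjusted p = 0.0336, limma).

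Within a library the ratio of 2 genes does not depend on how libraries are scaled, and 8 such ratios were described. They were chosen after the values were seen, and none of their comparisons passed adjustment. The first was that of Dct to Tyr. The ratio was 38.9 in control 1, 45.3 in control 2 and 39.7 in control 3. It was 23.9 to 37.0 in the NE group (median 29.3) and 23.7 to 35.4 in the brimonidine group (median 29.2). Each exposed library thus had less Dct for its Tyr than every control, and control 2 did not stand far from the other controls in this measure. On the log2 scale the ratio was lower by a difference of -0.44 in the NE group (exact two-sided permutation p = 0.0167) and of -0.48 in the brimonidine group (exact permutation p = 0.00833, the smallest that 7 against 3 libraries can give). Without control 2 the groups still did not overlap, and the differences were -0.37 (exact p = 0.0833) and -0.42 (exact p = 0.0556), where 7 against 2 libraries cannot go below 0.0278. Both comparisons share the same 3 controls. The 8 ratios were compared in 3 ways, and 5 of these 24 comparisons had an exact permutation p under 0.05. After Benjamini-Hochberg adjustment over the 24 ratio comparisons, the lowest p was 0.145, so that none passed. Tyr in control 1 rests on 56 fragments (95% Poisson interval 42.3 to 72.7).

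The other ratios with an exact permutation p under 0.05 involved the structural genes. Dct over Mlana was 12.7, 9.71 and 26.5 in controls 1, 2 and 3 and 8.17 to 11.2 in the NE group, lower than control by a difference of -0.63 on the log2 scale (exact permutation p = 0.025) and by -0.94 without control 2 (exact permutation p = 0.0278). Without control 3, whose ratio was by far the highest, the difference was -0.21 (exact permutation p = 0.139), so that its size rested on that library. In the brimonidine group it was 9.37 to 15.8, higher than NE by 0.31 on the log2 scale (exact permutation p = 0.0303). Dct over Pmel was 17.2 to 24.8 in the NE group and 19.6 to 35.0 in the brimonidine group, a difference of 0.38 (exact permutation p = 0.0262). None of these passed the adjustment. Dct over Slc45a2 was the most even of all, at 12.2 to 18.6 over the 17 libraries, and it overlapped in every comparison.

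**Figure D3:**
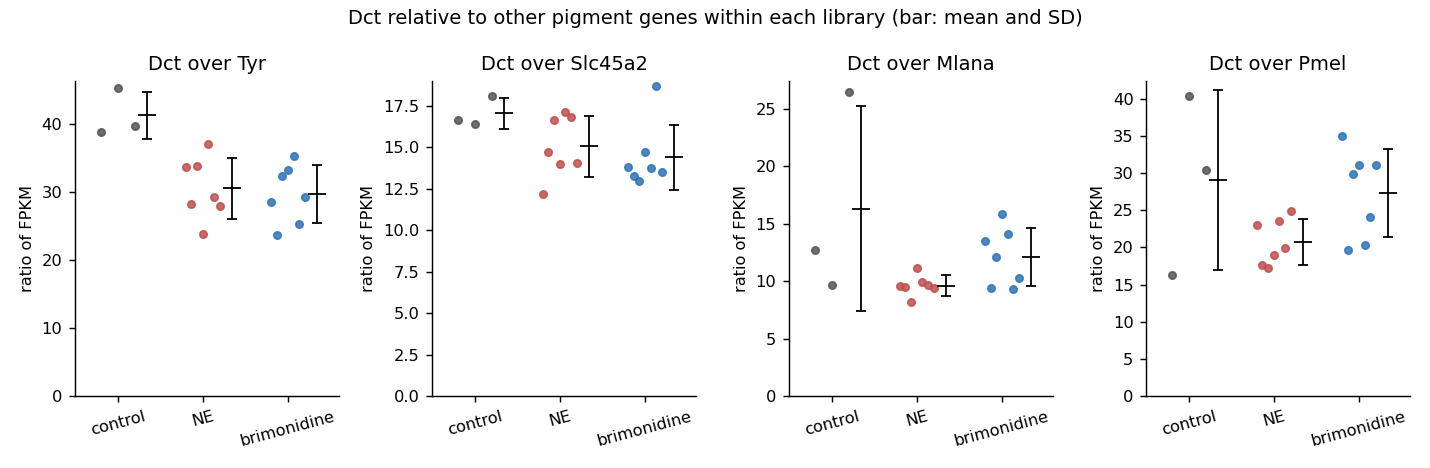
FPKM of Dct divided by that of Tyr, Slc45a2, Mlana or Pmel in the same library (vertical axes from 0), by group. Points are libraries and bars give the mean and SD. Only for Dct over Tyr do all 14 exposed points, up to 37.0, lie below all 3 control points, from 38.9 up.

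Correlations between the pigment genes were computed over the 14 exposed libraries. Pmel rests on 44 to 70 fragments there and Mlana on 24 to 45. The 95% Poisson intervals of the lowest and highest library overlapped for Pmel (32.0 to 59.1 and 54.6 to 88.4) and for Mlana (15.4 to 35.7 and 32.8 to 60.2). Counting error alone can thus weaken their r, and its part was not tested. Of 15 pairs among the 6 members tested, 10 had a positive Pearson r of log2(FPKM + 1), and 1 passed Benjamini-Hochberg adjustment over the 15. That pair was Dct and Slc45a2 (r = 0.738, permutation p = 0.00299, adjusted 0.0448; Spearman's rho = 0.749, permutation p = 0.0032, adjusted 0.048). Its r was 0.614 without the 2 libraries farthest from the median of Dct, and 0.712 within both the NE and the brimonidine group (n = 7 each). Tyr and Dct had r = 0.552 (permutation p = 0.0407, adjusted 0.305; rho = 0.582, permutation p = 0.0318, adjusted 0.219), and r = 0.392 without 2 libraries. Mitf, a known regulator of pigment genes, passed with none of the other members. Its r was 0.064 with Tyr, 0.345 with Dct (0.639 without the 2 libraries farthest from the median of Dct), 0.172 with Slc45a2, -0.41 with Pmel and -0.06 with Mlana, and none had an adjusted p under 0.05. With Pmel rho was -0.55 (permutation p = 0.0438, adjusted 0.219). Dct and Mlana had r = 0.924 within the NE group (exact permutation p = 0.00278) and 0.0208 within the brimonidine group, a difference that was not tested. Rescaled by the median ratio, no pair passed.

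The pigment genes were then set beside the other cells of the stria in each library, as a description with no test. The mean log2(FPKM + 1) of the 6 members that reached 1 FPKM was 1.80 in control 1, 3.09 in control 2 and 2.08 in control 3. It was 1.96 to 2.33 in the NE group (median 2.12) and 2.11 to 2.26 in the brimonidine group (median 2.18). The 13 marginal cell genes, which encode ion transporters and factors of the epithelium facing the endolymph, had 2.61, 3.78 and 2.93 in controls 1, 2 and 3, and 11 basal cell and fibrocyte genes had 4.67, 6.02 and 4.85. All 3 lists were thus highest in control 2. The pigment genes lay below the marginal cell genes by 0.68 to 0.85 in the controls, by 0.46 to 0.67 in the NE group and by 0.52 to 0.72 in the brimonidine group. They lay below the basal cell and fibrocyte genes by 2.77 to 2.93, 2.58 to 2.95 and 2.62 to 2.93, where all 3 groups overlapped. Genes of central neurons and glia followed another pattern. Their 13 genes had means of 4.24, 5.48 and 4.24 in controls 1, 2 and 3, 1.32 to 1.94 in the NE group and 1.32 to 2.95 in the brimonidine group, and their summed FPKM was 344 to 857 in the controls, 38.5 to 53.6 in the NE group and 35.7 to 121 in the brimonidine group. In controls 1 and 3 these genes were high while the pigment genes were not. Of the 13, 12 were differentially expressed between NE and control, all lower in the NE group. Of all genes tested, 5.76% passed in either direction. Without control 2 the count was 8, and Neurod1 and Pcp2 did not reach the minimum level for testing there. The list was drawn up with earlier results of these data known, so that its count is no independent test. By p the first 6 were Aldoc, Neurod1, Cbln1, Gabra6, Cbln3 and Calb1, most of them known from the cerebellum. Of the 12, Neurod1 and Pcp2 were below 1 FPKM in every NE library, and Gabra6 and Cbln3 in all but NE 1. These 4 entered the test through the controls, so that they could be called only as lower. The part of this tissue in any pigment gene value was not tested.

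**Figure D4:**
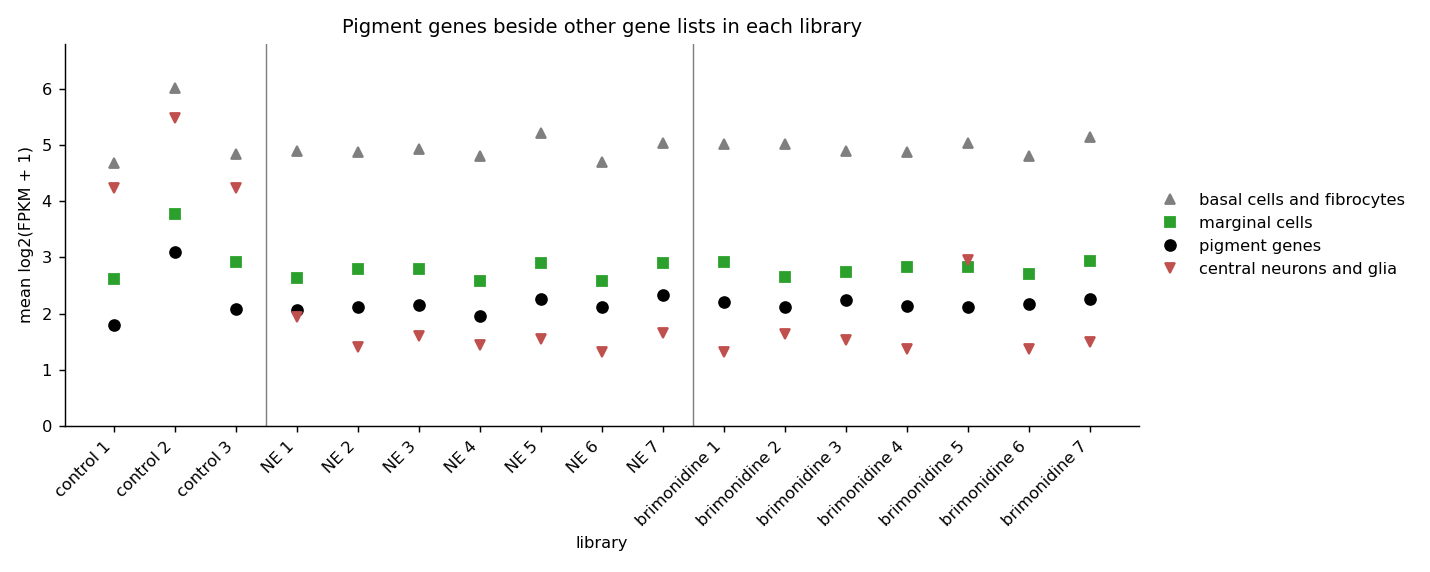
Mean log2(FPKM + 1) of 4 gene lists in each of the 17 libraries (6 pigment genes, 13 marginal cell genes, 11 basal cell and fibrocyte genes, 13 genes of central neurons and glia). Vertical lines divide control, NE and brimonidine libraries. Control 2 is highest for all 4 lists, and central genes alone separate all 3 controls, from 4.24 up, from the exposed libraries.

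Beyond the members, of 20 receptors and regulators of the melanocyte lineage 12 were tested, and 1 was differentially expressed in each comparison with control, none between brimonidine and NE and none without control 2. This share is near that of all genes, 5.76% between NE and control. Their median difference was -0.19 between NE and control, where all genes tested had -0.04, and without control 2 it was -0.04 too. The gene was Ednrb, the endothelin receptor that melanoblasts need to migrate and survive. It had 6.63, 18.7 and 8.44 FPKM in controls 1, 2 and 3, 2.51 to 4.02 in the NE group (median 3.35) and 2.94 to 4.53 in the brimonidine group (median 3.62). All 14 exposed libraries lay below all controls. Groups that did not overlap were found for 18.3% of all genes tested between NE and control and 19.4% between brimonidine and control. The difference was -1.40 with NE (adjusted p = 0.00331, limma) and -1.28 with brimonidine, and without control 2 it was -0.99 and -0.88, short of the fold threshold. Kit, the receptor for stem cell factor on melanocytes and mast cells, passed the adjusted p but not the fold, as 14.1% of all genes tested between NE and control passed the adjusted p alone, and is named after its values were seen. It had 9.05, 13.6 and 10.5 FPKM in controls 1, 2 and 3, 5.76 to 7.72 in the NE group (median 6.91) and 5.81 to 7.50 in the brimonidine group (median 7.05), again with no overlap. Its difference was -0.61 with NE (adjusted p = 0.00781, limma) and -0.46 without control 2 (adjusted p = 0.0301, limma). Kitl, its ligand, had a difference of -0.80 with NE (adjusted p = 0.0159, limma), also short of the fold, and -0.48 without control 2. Sox10, the neural crest factor that drives Mitf, had 9.87, 29.8 and 11.9 FPKM in controls 1, 2 and 3 and 8.89 to 13.0 in the NE group (median 11.0), with only control 2 far above the rest (adjusted p = 0.298, limma).

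Most other melanosome genes did not pass the test. Counts by both thresholds stand against 5.76% of all genes tested between NE and control. Of 7 further membrane transporters and receptors of the melanosome, 6 were tested and 1 was differentially expressed, the zinc transporter Tmem163. It had 1.92, 5.23 and 1.49 FPKM in controls 1, 2 and 3 and 0.473 to 0.737 in the NE group (median 0.639), a difference of -1.13 (adjusted p = 0.00869, limma). It was below 1 FPKM in every exposed library and entered the test through the controls alone, so that it could be called only as lower, and without control 2 it was not tested. Slc24a5, a melanosomal cation exchanger, had 3.30, 3.70 and 2.35 FPKM in controls 1, 2 and 3 and 1.28 to 2.63 in the NE group (median 1.84), a difference of -0.54 (adjusted p = 0.0379, limma) below the fold threshold, and -0.44 without control 2 (adjusted p = 0.167, limma). Of 27 genes of melanosome biogenesis and transport, such as the Rab, BLOC and HPS genes, 25 were tested between NE and control and none was differentially expressed by both thresholds, with a median difference of 0.04. At the adjusted p alone, which 14.1% of all genes passed, 1 did, Hps3, with a difference of 0.33 and of 0.25 without control 2 (adjusted p = 0.102, limma). The most abundant of them, the tetraspanin Cd63, averaged 69.1 ± 8.75 FPKM after noise (SD, n = 7) and 62.7 ± 5.95 without it (SD, n = 3). These genes are used by lysosomes of many cells.

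Of 11 other melanocyte-enriched genes, 8 were tested between NE and control and 1 was differentially expressed, Syngr1, a synaptic vesicle protein also of neurons, lower by a difference of -1.80 (adjusted p = 0.000885, limma) and still lower without control 2 (-1.40). In the brimonidine group, of 9 tested, 2 were lower than in the control group, and 1 when control 2 was left out, where 5.73% of all genes tested passed in that comparison. Syngr1 was lower there by a difference of -1.89. Of 8 other genes of strial intermediate cells, 7 were tested and Nrcam, an adhesion molecule of neurons as well, was lower in the NE group by a difference of -1.25, but it was below 1 FPKM in all 7 NE libraries and could be called only as lower. Kcnj10, the potassium channel of intermediate cells, had 9.44, 29.4 and 12.8 FPKM in controls 1, 2 and 3, 7.17 to 12.4 in the NE group (median 8.73) and 7.46 to 10.9 in the brimonidine group (median 10.2), and it did not pass (adjusted p = 0.0937 with NE, limma). Of 13 marginal cell genes, Atp1b2, a subunit of the sodium pump also of glia, was lower in the NE group by a difference of -1.47 and the other 12 did not pass. No basal cell or fibrocyte gene of 11 passed, among them Coch, the most abundant. Ednrb, Tmem163, Syngr1, Nrcam and Atp1b2 are all expressed in the brain too. They were highest in control 2, as was the summed FPKM of central neuron, marginal cell, bone, red cell and hair cell genes. Without control 2 the difference was -0.96 for Atp1b2 with NE, short of the fold threshold, and Nrcam did not reach the minimum level for testing with NE. The part of central tissue in these results was not tested.

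Markers of other cells that could hold pigment gene transcripts were counted over whole lists. Of 8 genes of skin keratinocytes, 3 were tested and none passed, with a summed FPKM of 9.03 to 29.0 in the controls, 23.2 to 50.4 in the NE group and 20.2 to 33.5 in the brimonidine group. In control 2 Krt14, the most abundant, was the lowest of all libraries (4.496 FPKM), while Krt10 (1.40 FPKM) and Krt1 (0.350 FPKM) were the highest. Of 4 genes of the retinal pigment epithelium, which also makes melanin, 2 were tested and none passed. Rpe65, its visual cycle enzyme, was at 0 in 9 of 17 libraries, while Rlbp1 was present in all 17 and highest in control 2 (5.13 FPKM), and Best1 was between 0.838 and 2.12 FPKM. Osteoclast genes, of which 7 of 8 were tested, had a summed FPKM of 541 to 664 in the controls, 684 to 800 in the NE group and 718 to 859 in the brimonidine group, and none passed. Mmp9 was the largest part of this sum outside control 2, where it was lowest (183 FPKM) and Acp5 (97.0 FPKM), Ctsk (205 FPKM) and Atp6v0d2 (15.5 FPKM) were the highest of all libraries. None of 7 mast cell genes, 8 macrophage genes, 10 genes of Schwann cells and satellite glia, 7 of bone or 5 of red cells was differentially expressed by both thresholds, nor were the hair cell and epithelium genes, of which 5 of 8 were tested between NE and control and 6 in the other comparisons. The most abundant genes in some of these lists were Mmp9 for osteoclasts, Hdc for mast cells, C1qa for macrophages, Col1a1 for bone, Hba-a1 for red cells, Rlbp1 for the retinal epithelium and Otog for the cochlear epithelium. Of 6 skeletal muscle genes, 3 were higher in the NE group than in control, Acta1, Ckm and Myh1, by differences of 1.17, 1.05 and 1.10. Of all 15950 genes tested, 43 were higher. Without control 2 it was 5 of the 6 muscle genes, against 28 of 15431 genes. With brimonidine no muscle gene was higher, and without control 2 it was 3, against 18 of 15535 genes. The part of these cells in the pigment gene values was not tested.

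The genes most like the pigment genes were sought over the 14 exposed libraries. The profile was the mean of the enzyme and melanosome protein genes that reached 1 FPKM, Tyr, Dct, Pmel and Mlana, on the log2(FPKM + 1) scale, each centred on its mean. Pmel had r = -0.31 with Tyr and -0.15 with Dct, so that the profile averages genes that did not all vary together. Pmel and Mlana rest on few fragments, so that counting error also enters the profile. In all, 16410 genes were compared with it by Pearson's r, as a description. Their r ran from -0.828 to 0.803, so that values of this size occurred in both directions. The 10 highest were Tnfsf13os (0.803), Ccs (0.780), Cldn14 (0.775), Galnt3 (0.750), Trim34a (0.749), Adgra3 (0.748), Atp1b3 (0.738), Tbc1d25 (0.724), Gpr137 (0.718) and Marco (0.714). Over all 17 libraries, control 2 included, r was 0.920 for Adgra3, 0.858 for Atp1b3, a sodium pump subunit, 0.699 for Cldn14, a tight junction protein of the cochlea, and 0.687 for Ccs, the copper chaperone of superoxide dismutase. It was between -0.58 and 0.35 for the other 6 of the 10. The median r over the exposed libraries was 0.392 for the marginal cell genes, 0.397 for the hair cell and epithelium genes, 0.305 for bone genes, 0.297 for the basal cell and fibrocyte genes, 0.207 for other melanocyte-enriched genes and 0.204 for other intermediate cell genes. It was 0.109 for the lineage receptors and regulators, -0.07 for the other melanosome transporters, -0.01 for the genes of melanosome biogenesis, -0.35 for skeletal muscle, -0.37 for red cells and -0.01 for all genes compared. All genes of a library share its depth and dissection.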

How the data were processed

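The authors deposited FPKM values for 35285 genes in 17 libraries, made by dividing fragments counted on a gene by its length and its library's total, with no other scaling. RNA was extracted with TRIzol and made into stranded mRNA libraries. The submitters' processing notes name Trimmomatic, HISAT2, HTSeq, Cufflinks and mm10, and versions were not given in the sources used here. Groups came from the sample labels, and p-values measure the spread between these libraries. Members and gene lists were chosen with earlier results of these data known. Genes with FPKM of at least 1 in at least 3 libraries compared were tested by limma 3.58.1 in R 4.3.3 (a linear model with moderated variances and a mean-variance trend) on log2(FPKM + 1), a scale that understates changes of low genes. Differential expression meant an adjusted p (Benjamini-Hochberg) below 0.05 together with a log2 fold change of 1 or more in size. As FPKM values are not counts, a count model, voom, was run only as an alternative on the recovered fragments. Members were compared singly by exact permutation, two-sided, and correlations with 100000 permutations (Python 3.11.15, scipy 1.17.1). Intervals and floors on fragments cover counting error only. The fit was tested on simulated data. Named genes were all members, then in each other list up to 6 genes by p of those differentially expressed in any comparison, otherwise the most abundant, and the 10 genes most like the members. Kit, Kitl, Sox10, Slc24a5, Hps3, Kcnj10, Rpe65, Best1, Pcp2, Krt10, Krt1, Acp5, Ctsk and Atp6v0d2 fall outside this rule and were chosen after their values were seen, as were the ratios of members and the gene list counts without control 2. Alternatives were a pseudocount of 0.1, no filter, quantile normalization, median ratio rescaling, array weights, a single model of all 17 libraries, the replicate number as a block, voom and each library left out. Some genes that the rule would name are not reported here.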

Additional observations from a re-analysis of the deposited data

Results flagged for a closer look

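Each of the 8 members was examined in the NE and the brimonidine group for a library far from the other 6, by the gap to its neighbour over the whole range of the group, at Dixon's limit of 0.568. By chance about 1 in 20 such groups passes, and 2 of 16 did. Mitf was 3.59 FPKM in NE 5, where the gap was 0.634 of the range and the library rested on 390 fragments. Oca2 was 0.198 FPKM in brimonidine 4, from 14 fragments where the other 6 libraries of that group had 0 or 1, and the gap was 0.929 of the range. No other member stood apart in either library by this measure.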

How the results depend on the processing

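Between brimonidine and NE, all 132 recomputed values of the 6 members kept their direction and their side of the thresholds. The comparisons with control did not. After rescaling by the median ratio, by quantiles and with array weights, the NE difference was 0.0149, 0.20 and 0.0486 for Tyr and 0.0333, 0.18 and 0.11 for Pmel, where it had been below 0. In the same order, Mlana in brimonidine against control was 0.00347, 0.10 and 0.57. Quantile normalization also gave 0.0429 for Pmel and 0.13 for Slc45a2 there, and array weights gave 0.0349 for Mitf and 0.11 for Slc45a2. Quantile normalization moved the median of all genes by 0.11 between NE and control. The cause was not tested.

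With each library left out, NE differences ranged from -0.27 to 0.20 for Tyr, -0.93 to 0.0775 for Dct, -0.12 to 0.12 for Pmel, -0.31 to 0.71 for Mlana and -0.57 to 0.18 for Slc45a2. Brimonidine differences from control ranged from -0.18 to 0.29 for Tyr, -0.80 to 0.21 for Dct, -0.43 to 0.58 for Mlana, -0.38 to 0.0360 for Mitf and -0.42 to 0.33 for Slc45a2, and from -0.63 to 0.0942 for the log2 ratio of Dct to Mlana. Pairs of members past the adjusted threshold went from 1 to 0 after median ratio rescaling, 9 with all 17 libraries and 0 within the brimonidine group.

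With the replicate number as a block, 0 members and 0 of 15426 genes were called between NE and control. The main fit called 918 genes. Between brimonidine and control the block fit called 0 members and 263 genes, against 913 in the main fit. In both, the block fit kept only replicate numbers that the control group also has, and so left out the other exposed libraries. The block and the smaller groups cannot be told apart in these counts. Deviations of libraries with the same number correlated by -0.22 to 0.08, so the numbers are no evidence of a paired design. The 7 against 3 design, with 1 control far from the others, limits what the comparisons with control can show.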
